A study of Danio rerio with 6 samples.

Results

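The genes described here are 33 zebrafish genes that code for the enzymes of glycolysis and for 2 glucose transporters, of 27771 genes in the count tables. They were chosen by symbol. Those of the upper pathway were hexokinases (hk1, hk2), glucose-6-phosphate isomerases (gpia, gpib), phosphofructokinases (pfkma, pfkmb, pfkla, pfklb, pfkpa, pfkpb), aldolases (aldoaa, aldoab, aldoca, aldocb) and triosephosphate isomerases (tpi1a, tpi1b). Those of the lower pathway were glyceraldehyde-3-phosphate dehydrogenases (gapdh, gapdhs), phosphoglycerate kinase (pgk1), phosphoglycerate mutases (pgam1a, pgam1b, pgam2), enolases (eno1a, eno1b, eno2, eno3), pyruvate kinases (pkma, pkmb, pklr), and lactate dehydrogenases (ldha, ldhba). The transporters were slc2a1a and slc2a1b. All 33 were in the tables, each under 1 Ensembl identifier. Cells came from adult ventricles of wild-type (WT) fish and of heterozygotes for the cloche allele clofv087b (clofv087b/+, called het), either sham (whose treatment label says untreated) or sampled 3 or 7 days after cardiac amputation (3 dpa, 7 dpa). Cloche is the gene npas4l, a transcription factor of blood and endothelial development. Every combination of genotype and stage was 1 droplet library made from 15 pooled ventricles, digested for 3 h at 4 °C in a protease buffer that held 10 mM glucose and sorted to remove debris. So 6 libraries were compared and no single combination was replicated. The ages of the fish were not given in the labels.

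Glycolysis splits glucose into pyruvate in the cytosol and yields ATP without oxygen; lactate dehydrogenase regenerates the NAD that the pathway needs. Several steps are carried out by paralogs with tissue preferences: in mammals, the enolase ENO3, the mutase PGAM2 and the phosphofructokinase PFKM are the muscle forms, while ENO1, PGAM1 and PFKP are found widely. The adult heart is known to draw most of its energy from fatty acids, and in regenerating zebrafish hearts the cardiomyocytes at the wound border, which express the natriuretic peptide gene nppa, have been described as turning to glycolysis.

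The libraries held 9445 to 14816 barcodes and 63752936 to 117947578 UMIs, and 8296 to 12448 cells per library were kept. Pairs of libraries shared 23 to 60 barcodes. Clustering was done with the glycolysis genes left out, and clusters were named from marker lists, whose genes were all in the tables but cd3eb: 14870 cells were cardiomyocyte-like, 14703 macrophage-like, 7158 endothelial-like, 5954 epicardium- or fibroblast-like and 1728 thrombocyte-like (thrombocytes are the nucleated platelets of fish). Another 9884 cells, with a median of 848 UMIs, stayed unnamed. Not all of them were shallow: a cluster of 1443 cells had a median of 7742 UMIs. A cluster of 433 cells led by actc1a, myh7l and myh7 had a median of 15610 UMIs, with 274 cells from WT sham. A cluster of 46 cells was led by myh6 and ttn.2, with 44 from WT 3 dpa. So some cells led by cardiomyocyte genes were not in the cardiomyocyte-like class. The median share of mitochondrial UMIs per library was 3.41% and 3.90% at sham, 8.07% and 8.77% at 3 dpa, and 4.79% and 4.87% at 7 dpa, so it was higher in both 3 dpa libraries. With mitochondrial genes left out of the sums, each count of glycolysis genes called by stage or genotype below stayed within 1.5 times its value. A stage and the preparation of its libraries cannot be told apart. npas4l itself was near the detection limit, with 45, 64 and 42 UMIs in the kept cells of the WT libraries and 19, 41 and 46 in those of the het libraries. The labels do not say what the allele does to its transcript, so these counts do not check the genotype.

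Cardiomyocyte-like cells carried the most glycolysis mRNA. Levels are given as CPM, the UMIs of a gene per 1000000 UMIs of all cells of a class in a library. The 3′ kit counts 1 end per transcript, so levels of different genes were compared without dividing by length. The 33 genes together made up 24296 ± 1594 CPM of the cardiomyocyte-like mRNA (mean ± SD over 6 libraries), 10709.8 ± 2319.8 CPM in neutrophil-like, 7437 ± 1834 CPM in thrombocyte-like, 5306 ± 1414 CPM in macrophage-like, 3699 ± 969 CPM in endothelial-like and 3315 ± 2165 CPM in epicardium- or fibroblast-like cells. The lowest cardiomyocyte-like library, at 21726 CPM, stood above the highest neutrophil-like library, at 12815 CPM, while the ranges of thrombocyte-like (4158 to 9385 CPM), macrophage-like (4022 to 7553 CPM), endothelial-like (2309 to 5123 CPM) and epicardium- or fibroblast-like cells (1437 to 6161 CPM) overlapped. A single gene, gapdh, gave 10179 ± 1389 CPM of the cardiomyocyte-like total; without it the other genes stood at 14117 ± 2547 CPM in cardiomyocyte-like and 8868 ± 2348 CPM in neutrophil-like cells.

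Cardiomyocyte markers were also counted in the other classes, and this background is called free RNA here. Whether it was free RNA or came from barcodes that held more than 1 cell was not tested. The summed level of the cardiomyocyte markers in another class, as a percentage of their level in cardiomyocyte-like cells of the same library, had a median of 2.44% in macrophage-like, 2.05% in epicardium- or fibroblast-like, 5.74% in endothelial-like, 9.71% in thrombocyte-like and 11.1% in neutrophil-like cells. In macrophage-like cells gapdh, pfkmb and pgam2 stood at 1.13, 0.980 and 0.955 times that share (medians over 6 libraries), so those counts were read as background. By the same measure gapdhs stood at 199, pkma at 29.4, pgam1a at 38.9 and eno1a at 23.5 times the share, above it in 6 of 6 libraries each.

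By mean level, 19 of the 33 genes were highest in cardiomyocyte-like cells, 7 in neutrophil-like, 3 in macrophage-like, 2 in thrombocyte-like, 1 in epicardium- or fibroblast-like and 1 in erythrocyte-like cells. Among them pfklb (neutrophil-like), pfkma (erythrocyte-like) and aldoca (macrophage-like) were placed on 2, 15 and 12 UMIs, too few to rank classes. The order in cardiomyocyte-like cells began with gapdh, followed by aldoaa at 3248 ± 721 CPM, eno3 at 2556 ± 464 CPM, ldhba (a lactate dehydrogenase B form) at 1425 ± 137 CPM, tpi1b at 1231 ± 152 CPM and aldoab at 1068 ± 139.6 CPM (mean ± SD, n = 6 libraries). The spreads of aldoaa and eno3 overlapped, as did those of ldhba and tpi1b and those of tpi1b and aldoab. A middle group followed with eno1a at 769 ± 230.3, ldha at 662 ± 266, pkma at 644 ± 264, pgam2 at 445 ± 45.4 and pgk1 at 394 ± 53.7 CPM, where each gene's spread overlapped that of the next. Both transporters were low, slc2a1b at 20.9 ± 3.38 CPM and slc2a1a at 6.04 ± 1.88 CPM, and aldoca, eno2 and pklr gave 1, 9 and 2 UMIs in all cardiomyocyte-like cells of the 6 libraries.

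**Figure D1:**
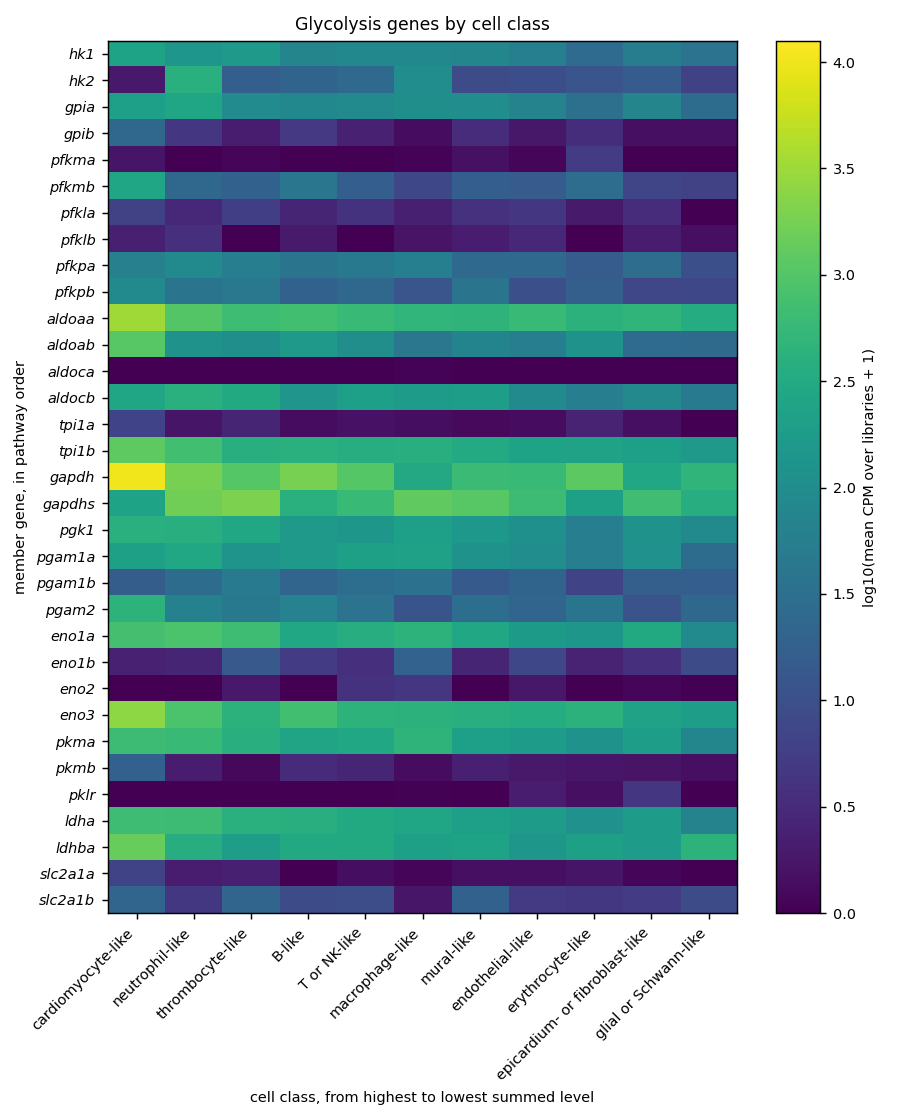
Level of each of the 33 genes (rows, pathway order) in 11 cell classes (columns), as log10 of the mean CPM over libraries plus 1. The cardiomyocyte-like column holds gapdh at 10179 CPM, the brightest cell, while hk2 is dark there and bright in the neutrophil-like column at 399 CPM; libraries with fewer than 20 cells of a class are left out.

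At most steps the balance between paralogs differed between cardiomyocytes and macrophages. The log2 ratio of 12 paralog pairs was compared between cardiomyocyte-like and macrophage-like cells within each library, and 11 of the 12 pairs differed in the same direction in 6 of 6 libraries (exact sign-flip permutation test, two-sided, p = 0.0312, adjusted p = 0.0341 over 12 pairs). That p is the smallest that 6 libraries can give. One of the 11, aldoca to aldocb, is not a measured balance: aldoca had 1 cardiomyocyte-like and 12 macrophage-like UMIs, so the pseudocount of 1 UMI and the depth set its ratio. Of the 11 pairs with at least 10 UMIs of each gene in each class, 10 differed. Hexokinase, the first step, was almost all hk1 in cardiomyocyte-like cells, at 242 ± 40.05 CPM against 0.941 ± 0.406 CPM for hk2; macrophage-like cells held 79.6 ± 13.8 CPM of hk1 and 100.4 ± 19.1 CPM of hk2. The log2 ratio of hk1 to hk2 was 8.07 ± 0.68 in cardiomyocyte-like and -0.33 ± 0.37 in macrophage-like cells. At the dehydrogenase step the log2 ratio of gapdh to gapdhs was 5.69 ± 1.12 in cardiomyocyte-like and -2.04 ± 0.68 in macrophage-like cells. gapdhs stood at 234 ± 151 CPM in cardiomyocyte-like and 1254 ± 427 CPM in macrophage-like cells. The macrophage-like gapdh counts were read as background above, so the size of that ratio is uncertain.

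Towards the end of the pathway the log2 ratio of pgam1a to pgam2 was -1.13 ± 0.59 in cardiomyocyte-like and 4.38 ± 0.26 in macrophage-like cells, and that of eno1a to eno3 was -1.77 ± 0.34 in cardiomyocyte-like and 0.01 ± 0.46 in macrophage-like cells. Macrophage-like cells held similar levels of eno1a and eno3 (455 ± 205 and 424 ± 66.5 CPM), whereas cardiomyocyte-like cells held more eno3. The log2 ratio of ldha to ldhba was -1.20 ± 0.52 in cardiomyocyte-like and 0.20 ± 0.35 in macrophage-like cells. For pyruvate kinase, pkma exceeded pkmb in both classes, with log2 ratios of 5.18 ± 0.90 in cardiomyocyte-like and 10.04 ± 0.87 in macrophage-like cells, and pkmb reached 17.5 ± 6.08 CPM in cardiomyocyte-like cells. The aldolase ratio aldoaa to aldoab was 1.59 ± 0.38 in cardiomyocyte-like and 3.60 ± 0.30 in macrophage-like cells, and gpia to gpib was 3.17 ± 0.36 in cardiomyocyte-like and 8.33 ± 0.71 in macrophage-like cells. In macrophage-like cells pkmb and gpib had 55 and 51 UMIs, pgam2 was read as background and part of the aldoab counts could be background too. The sizes of the ratios with these genes are therefore uncertain. The pfkma to pfkpa and tpi1a to tpi1b ratios also differed, but pfkma to pfkpa lost the call under 1 and tpi1a to tpi1b under 2 of 4 alternatives. pfkma and tpi1a were scarce, with 168 and 1394 cardiomyocyte-like and 12 and 58 macrophage-like UMIs. The transporter pair did not pass the test, with a difference in log2 ratio of 0.64 ± 1.35 (SD, n = 6, exact sign-flip permutation p = 0.406), at 20 and 105 macrophage-like UMIs.

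Neutrophil-like cells, 345 in all, had the highest hk2 of the classes, at 273, 534 and 371 CPM in WT and 263, 672 and 283 CPM in het at sham, 3 dpa and 7 dpa, on 377 UMIs. The lowest of these, 263 CPM, exceeded the highest macrophage-like value, 122 CPM. Neutrophil-like cells also led for gpia (267 ± 125 CPM), aldocb (407 ± 198 CPM), pgam1a (275 ± 98.0 CPM) and eno1a (857 ± 319.8 CPM), but for these 4 genes the cardiomyocyte-like mean lay within the neutrophil-like spread. The free RNA share of neutrophil-like cells ran from 6.20 to 24.9%, and hk2 stood at 3947 times it. Thrombocyte-like cells held the most gapdhs, 1928 ± 600.3 CPM, within the spread of the neutrophil-like 1598 ± 636 CPM.

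The cardiomyocyte-like cells were not uniform. Of their 4 clusters, one led by myh7, lmod2b and ttn.2 (4317 cells) held less glycolysis mRNA than the cluster led by acta1a, myh7l and xirp1 (5783 cells) and the cluster led by ttn.2, ttn.1 and myh7l (4412 cells), although none of the 33 genes had entered the clustering. The 33 genes summed to 15489 ± 767 CPM in the myh7-led cluster, 28322 ± 2704 CPM in the acta1a-led cluster and 28218 ± 842 CPM in the ttn.2-led cluster (mean ± SD, n = 6 libraries). These values describe clusters drawn from the same cells and carry no test. The highest myh7-led library, at 16600.0 CPM, lay below the lowest acta1a-led library, at 24603 CPM.

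Against the acta1a-led cluster, 19 of the 33 genes were lower in the myh7-led cluster in 6 of 6 libraries, 1 (eno1b, at 2.69 CPM) was higher in 6 of 6, and 13 were mixed or undetected. Among genes above 100 CPM in the acta1a-led cluster the gap was widest for the phosphofructokinases pfkmb and pfkpb: pfkmb stood at 80.9 against 346 CPM (0.234 of the level) and pfkpb at 27.3 against 111 CPM (0.245). ldha followed at 261 against 837 CPM (0.312), eno3 at 1353 against 3124 CPM (0.433) and gapdh at 5434 against 12335 CPM (0.441). In the same cells hk1, which commits glucose to the cell, stood at 234 against 243 CPM and pkma at 671 against 647 CPM, with spreads that overlapped. Cardiomyocyte markers summed to 88064 CPM in the myh7-led and 99240.1 CPM in the acta1a-led cluster, a ratio of 0.887. Mural markers were higher in the myh7-led cluster: the 8 markers summed to 2008 to 2738 CPM there, 83.3 to 502 CPM in the acta1a-led and 34.7 to 129 CPM in the ttn.2-led cluster. Most of that sum was acta2 (1573 CPM) and tagln (649 CPM), genes of smooth muscle contraction. The mural markers myh11a, pdgfrb and ndufa4l2a stood at 3.69, 0.361 and 0.0222 CPM, against 2319.6, 502 and 132 CPM in mural-like cells. The remaining markers notch3, cspg4 and kcne4 stood at 126, 8.20 and 16.6 CPM, against 9.25, 5.66 and 4.76 CPM in the acta1a-led cluster. Their levels in mural-like cells were 731, 52.7 and 1072 CPM. The myh7-led cluster held 902 of 3007 cardiomyocyte-like cells in WT sham and 772 of 1293 in het sham, and the 3 dpa libraries drew most of theirs (2081 in WT, 1743 in het) from the ttn.2-led cluster.

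**Figure D2:**
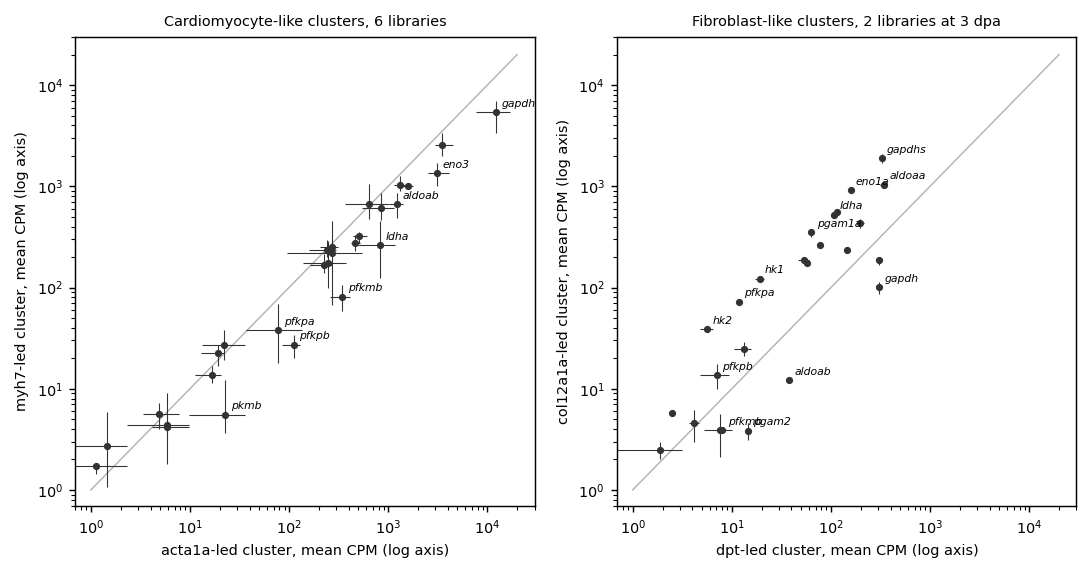
Mean CPM of each gene in one cluster (vertical log axis) against another (horizontal log axis): left, the myh7-led against the acta1a-led cardiomyocyte-like cluster over 6 libraries; right, the col12a1a-led against the dpt-led fibroblast-like cluster in the 2 libraries at 3 dpa. Bars span the lowest to the highest library, the grey line marks equal levels, and genes at 1 CPM or more in both clusters are shown: most points lie below the line on the left, with gapdh at 5434 against 12335 CPM, and above it on the right, with hk2 at 38.7 against 5.59 CPM.

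At 3 dpa, 11 of the 30 glycolysis genes tested in cardiomyocyte-like cells rose over sham and none fell (edgeR's quasi-likelihood test on summed counts, genotype and stage as terms, adjusted p at most 0.05, adjusted over 14996 genes). Of all genes tested, 4.97% were called higher and 6.96% lower, 11.9% in all (746 genes higher and 1043 lower). The median log2 fold change was 0.33 over the 30 genes and 0.02 over all genes, and 24 of the 30 were positive. The edgeR scale sets the typical gene to no change. With total UMIs as the scale the median over all genes moved to 0.17, 936 genes were called higher and 554 lower, and 10 members rose and none fell. The model tests a change common to both genotypes with 2 residual degrees of freedom. The count depended on single libraries: it was 0 without het 3 dpa, 5 without WT 7 dpa or without het 7 dpa, 6 without WT 3 dpa or without het sham, and 9 without WT sham.

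After the scarce pfkma, gapdhs had the largest rise. It stood at 125, 407 and 168 CPM (WT sham, WT 3 dpa, WT 7 dpa) and 79.7, 439 and 185 CPM (het, same order). Both 3 dpa libraries exceeded all others, and the log2 fold change was 1.92 ± 0.28 (SE), adjusted p = 0.00949. The phosphofructokinase gene pfkpa, a platelet-type form in mammals, stood at 38.61, 88.1 and 64.8 CPM in WT and 25.9, 96.2 and 49.3 CPM in het (sham, 3 dpa and 7 dpa in that order), a log2 fold change of 1.41 ± 0.25 (SE), adjusted p = 0.0166. ldha, whose enzyme turns pyruvate into lactate, stood at 409, 939 and 668 CPM in WT and 367, 1009.8 and 583 CPM in het, a log2 fold change of 1.20 ± 0.22 (SE), adjusted p = 0.0173. For both, sham was lowest, 7 dpa intermediate and 3 dpa highest in each genotype. The widely expressed mutase pgam1a stood at 132, 317 and 200.3 CPM in WT and 122, 319 and 209 CPM in het, a log2 fold change of 1.18 ± 0.19 (SE), adjusted p = 0.0123. pkma, whose mammalian counterpart is the regulated M-type pyruvate kinase, stood at 417, 961 and 538 CPM in WT and 461, 999 and 487 CPM in het, a log2 fold change of 1.02 ± 0.20 (SE), adjusted p = 0.0207. In WT alone the log2 ratio of the 3 dpa to the sham library was 1.20 (95% interval 1.18 to 1.23) for pkma and in het alone it was 1.12 (95% interval 1.09 to 1.15); these exact binomial intervals cover counting error only.

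The enolase eno1a stood at 528, 967 and 707 CPM in WT and 556, 1112 and 746 CPM in het, a log2 fold change of 0.80 ± 0.20 (SE), adjusted p = 0.0436. Of the other phosphofructokinases, pfkmb, the muscle form, rose by 0.78 and pfkpb by 0.81, and the isomerase gpib rose by 0.75 on the log2 scale. pfkma (2.20) and tpi1a (1.82) also passed, at levels of no more than 1.82 and 10.7 CPM. The genes that dominate the cardiomyocyte pool did not pass. gapdh stood at 11136, 8537 and 11058 CPM in WT and 10243, 8433 and 11666 CPM in het (log2 fold change -0.48 ± 0.24 (SE), adjusted p = 0.224), aldoaa had a log2 fold change of 0.37 ± 0.23 (SE), adjusted p = 0.321, eno3 one of 0.18 ± 0.27 (SE), adjusted p = 0.697 and ldhba one of 0.05 ± 0.23 (SE), adjusted p = 0.9. The called genes gpib, pfkmb, pfkpb, eno1a and pfkma lost the call under 6 to 8 of the 13 or 14 alternatives run and ldha and pkma under 3 of 14, whereas gapdhs, pfkpa, pgam1a and tpi1a lost it only without the het 3 dpa library. Macrophage markers in cardiomyocyte-like cells summed to 117, 93.3 and 50.6 CPM in WT and 60.8, 81.5 and 60.7 CPM in het, at most 0.902% of their level in macrophage-like cells, and lower at 3 dpa than at sham in WT. Mural markers moved more, standing at 902, 426 and 905 CPM in WT and 1515, 456 and 1119 CPM in het, and endothelial markers stood at 35.3, 11.004 and 32.9 CPM in WT and 33.2, 10.997 and 23.4 CPM in het, both lower at 3 dpa than at sham in both genotypes. Their part in the changes of the class was not tested.

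**Figure D3:**
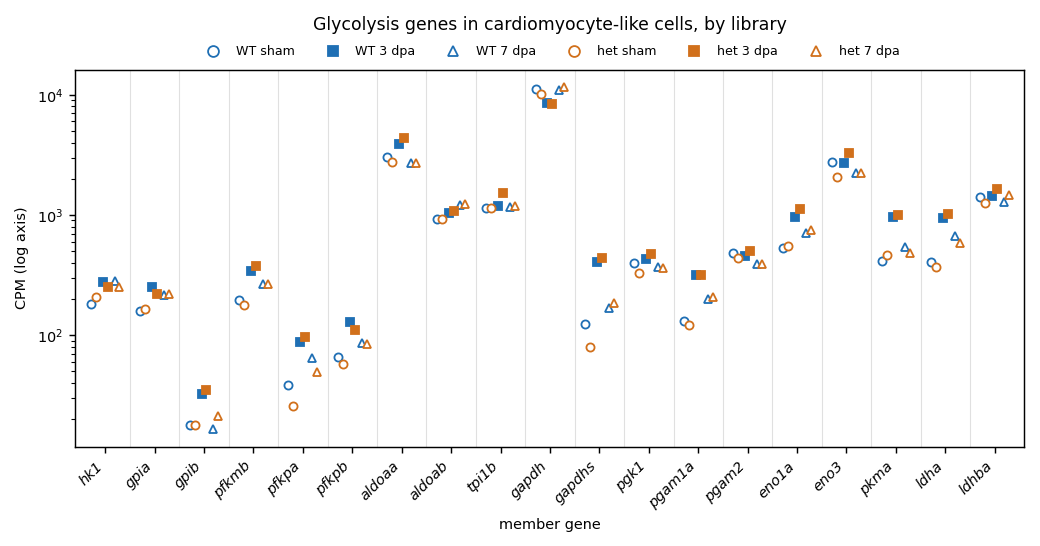
CPM (log axis) of 19 glycolysis genes in cardiomyocyte-like cells, 1 point per library, with circles for sham, filled squares for 3 dpa and triangles for 7 dpa, blue for WT and orange for het. For gapdhs, pfkpa, pgam1a, pkma and ldha both squares lie above every other point, while for gapdh they lie below, at 8537 and 8433 CPM.

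Because the cluster make-up of the cardiomyocyte-like cells changed with stage, the same test was run within the myh7-led cluster alone, which held 438 to 930 cells in every library. There 9 of 29 genes passed, against 3.67% of all genes called higher and 5.34% lower (9% in all). gapdhs (1.95), tpi1a (1.74), pfkpa (1.32), ldha (1.11), pgam1a (1.06) and pkma (0.75) rose, and gapdh (-1.20), eno3 (-0.80) and aldoab (-0.68) fell on the log2 scale. In that cluster gapdh stood at 6595, 3418 and 5974 CPM in WT and 6275, 3382 and 6958 CPM in het, with the 3 dpa libraries lowest in both genotypes (edgeR log2 fold change -1.20 ± 0.17 (SE), adjusted p = 0.00799). gapdhs stood at 117, 386 and 142 CPM in WT and 66.6, 454 and 142 CPM in het. Both 3 dpa libraries held more gapdhs and less gapdh than the other 4. Mural markers in this cluster summed to 2563 and 2008 CPM at sham and 3 dpa in WT and 2476 and 2322 CPM in het.

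In epicardium- or fibroblast-like cells, 14 of 26 glycolysis genes rose at 3 dpa and 4 fell (edgeR, adjusted over 14441 genes). This class changed broadly, with 23.6% of all genes called higher and 21.7% lower (45.2% in all). The median log2 fold change was 1.11 over the 26 genes and -0.00439 over all genes. With total UMIs as the scale the median over all genes moved to 0.56, 5571 genes were called higher and 1735 lower, and 18 of the 26 rose and 2 fell, so the edgeR fold changes below are smaller than the ratios of the CPM values. The 33 genes summed to 2129, 6016 and 2219.6 CPM in WT and 1437, 6161 and 1929 CPM in het, with both 3 dpa libraries above the other 4.

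pgam1a, the mutase of most tissues, stood at 19.8, 311 and 67.9 CPM (WT sham, WT 3 dpa, WT 7 dpa) and 13.2, 255 and 46.0 CPM (het, same order). Its log2 fold change at 3 dpa was 3.55 ± 0.24 (SE), adjusted p = 3.06e-05. eno1a stood at 78.7, 737 and 104 CPM in WT and 64.4, 748 and 88.9 CPM in het (sham, 3 dpa and 7 dpa), a log2 fold change of 2.82 ± 0.22 (SE), adjusted p = 4.01e-05. For both genes the 3 dpa libraries lay far above the other 4. pkma stood at 66.0, 467 and 79.7 CPM in WT and 48.0, 455 and 65.8 CPM in het, a log2 fold change of 2.47 ± 0.23 (SE), adjusted p = 6.38e-05. ldha stood at 68.0, 445 and 85.4 CPM in WT and 42.4, 401 and 66.2 CPM in het, a log2 fold change of 2.41 ± 0.23 (SE), adjusted p = 7.98e-05. gapdhs stood at 227, 1428 and 332 CPM in WT and 188, 1662 and 268 CPM in het, a log2 fold change of 2.34 ± 0.23 (SE), adjusted p = 8.93e-05. These 3 genes showed the same order of stages in WT and het. The hexokinases rose together: hk1 stood at 19.8, 104 and 48.6 CPM in WT and 9.56, 92.4 and 40.1 CPM in het (2.23 ± 0.28 (SE), adjusted p = 0.000254) and hk2 at 6.51, 34.1 and 10.8 CPM in WT and 3.19, 27.9 and 6.04 CPM in het (2.17 ± 0.29 (SE), adjusted p = 0.000368). Every step from hexokinase to lactate dehydrogenase had at least 1 gene that rose, the others that rose being pfkpb (2.06), pfkpa (1.86), gpia (1.78), tpi1b (1.45), aldoaa (1.41), pgk1 (1.28) and aldocb (0.79 on the log2 scale). The transporter slc2a1b had a log2 fold change of 0.79 ± 0.42 (SE), adjusted p = 0.149.

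The 4 genes that fell all had their highest mean in cardiomyocyte-like cells: gapdh (-1.83), pgam2 (-1.42), aldoab (-1.15) and eno3 (-0.89 on the log2 scale). Of the genes that rose, hk1, pfkpb, aldoaa, tpi1b, pgk1, pkma and ldha were also highest there. So genes highest in cardiomyocyte-like cells were found among those that fell and among those that rose. The level relative to the free RNA share is given below for the falling genes only. With total UMIs as the scale aldoab and eno3 no longer passed. gapdh stood at 493, 151 and 365 CPM in WT and 239, 140.4 and 320.0 CPM in het. Alongside, the free RNA share of the class moved, from 3.68% in WT sham and 1.30% in het sham to 1.54% and 1.53% at 3 dpa, the cardiomyocyte markers summing to 3788 and 1238 CPM at sham and 1430.4 and 1486 CPM at 3 dpa. gapdh, pgam2 and aldoab stood at 1.12, 1.01 and 1.11 times that share (medians over 6 libraries), near the level that free RNA alone would give, and eno3 stood at 4.03 times it. In WT gapdh and the share both fell, and in het gapdh fell while the share rose. The free gapdh to be counted also depends on its cardiomyocyte-like level, which was lower at 3 dpa than at sham in both genotypes. The part of free RNA in the fall was not tested. With the free RNA subtracted, all 14 genes that rose still passed, while pgam2 no longer passed the count filter. gapdh (-3.11), aldoab (-2.07) and eno3 (-0.88 on the log2 scale) were still called lower. Because gapdh and aldoab stood near the share, subtraction left little of their counts, so the sizes of these 2 falls are uncertain. Mural markers moved with the rise in this class, from 442 and 424 CPM at sham to 1352 and 1487 CPM at 3 dpa, at most 10.2% of their level in mural-like cells, and their part was not tested.

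**Figure D4:**
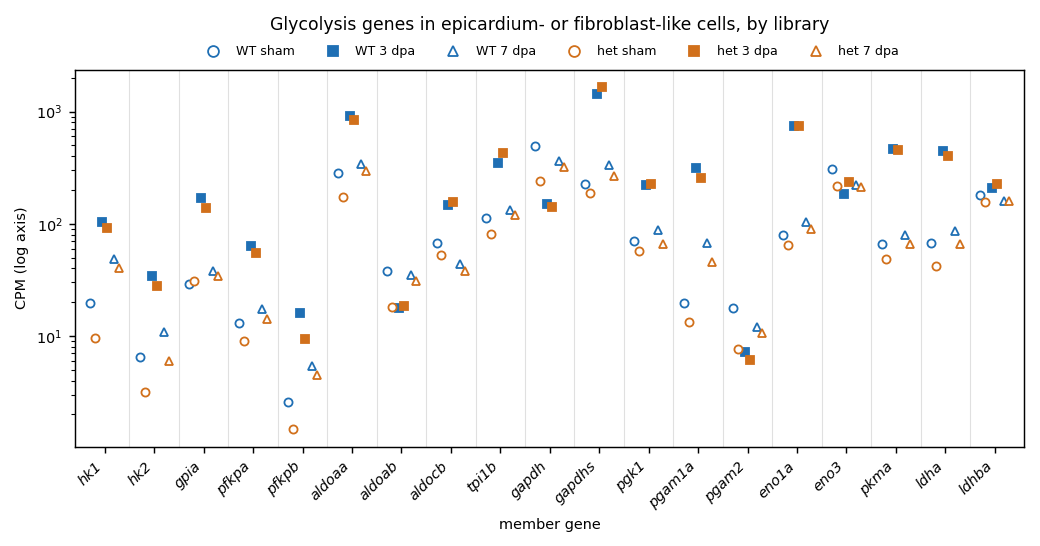
CPM (log axis) of 19 glycolysis genes in epicardium- or fibroblast-like cells, 1 point per library, with circles for sham, filled squares for 3 dpa and triangles for 7 dpa, blue for WT and orange for het. Both squares lie above all other points for hk1, hk2, gpia, pgam1a, eno1a, pkma and ldha, and below them for gapdh, at 151 and 140.4 CPM.

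The cluster make-up of this class changed with stage. At 3 dpa a cluster led by mdka, col5a1 and col12a1a (a midkine and 2 collagen genes) held 379 WT and 349 het cells, against 1 and 0 at sham. It had 34933 and 24182 UMIs per cell, against 6289.8 and 4878 in the cluster whose leading genes include dpt, and so gave most of the UMIs of the class at 3 dpa. The 33 genes summed to 6974 CPM (WT) and 7354 CPM (het) in the col12a1a-led cluster and to 2403 and 2384 CPM in the dpt-led cluster of the same libraries. In both libraries 17 of the 33 genes were higher and 8 lower in the col12a1a-led cluster, as a description of cells that had been clustered. hk2 stood at 6.92 times, hk1 at 6.44 times, pfkpa at 6.22 times, gapdhs at 5.80 times, eno1a at 5.78 times and pgam1a at 5.53 times the dpt-led level.

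Within the dpt-led cluster alone (272 to 690 cells per library), 2 of 23 genes rose at 3 dpa, where 3.2% of all genes were called higher and 6.63% in all. They were pgam1a (1.78 ± 0.34 (SE), adjusted p = 0.0127) and eno1a (1.28 ± 0.24 (SE), adjusted p = 0.0103). There pgam1a stood at 23.3, 60.8 and 30.4 CPM in WT and 9.50, 66.0 and 27.7 CPM in het. In the same cluster hk1 had 3 dpa values of 17.0 and 21.1 CPM against sham values of 25.6 and 10.4 CPM, so that the groups overlapped. The cycling genes mki67 and pcna, chosen after their values were seen, stood in the col12a1a-led cluster at 143 and 153 CPM and at 467 and 365 CPM, and in the dpt-led cluster at 11.7 and 5.28 CPM and at 67.2 and 37.5 CPM at 3 dpa. Their part in the difference was not tested.

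In the 3 other classes fewer genes passed at 3 dpa. In thrombocyte-like cells 3 of 21 rose (background 0.678% higher, 2.06% in all), with 57 to 667 cells per library. ldha stood at 146, 705 and 301 CPM (WT sham, WT 3 dpa, WT 7 dpa) and 121, 775 and 368 CPM (het, same order). Both 3 dpa libraries stood above all others, the 7 dpa libraries lay between, and the log2 fold change was 2.36 ± 0.28 (SE), adjusted p = 5.15e-05. ldha was called under all 14 alternatives, on 56, 73 and 139 UMIs in WT and 169, 114 and 290 in het. eno1a stood at 442, 995 and 550.3 CPM in WT and 287, 1081 and 655 CPM in het (1.41 ± 0.28 (SE), adjusted p = 0.0101). pkma rose by 1.15 on the log2 scale but kept its call under 5 of 14 alternatives. The free RNA share of thrombocyte-like cells ran from 4.67 to 13.8%, and ldha stood at 6.70 times it. Neutrophil markers in these cells summed to 112, 145 and 435 CPM in WT and 89.3, 272 and 811 CPM in het, and their part was not tested. Without het sham only ldha passed, and without WT 3 dpa 6 of the genes did.

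In endothelial-like cells 2 of 25 rose (background 0.885% higher, 1.63% in all): pfkpa, at 9.80, 42.9 and 22.6 CPM in WT and 9.60, 42.0 and 20.1 CPM in het (1.81 ± 0.26 (SE), adjusted p = 0.0143), and eno1a, at 109.6, 259 and 125 CPM in WT and 79.7, 321 and 116 CPM in het (1.31 ± 0.27 (SE), adjusted p = 0.0494). For both genes both libraries at 3 dpa stood above the other 4. In 1 endothelial-like cluster alone neither was called by edgeR, where 1.59% of all genes were called at adjusted p at most 0.05. Of the 24 glycolysis genes there, 8 had an unadjusted p under 0.05, given without a share over all genes. With total UMIs as the scale 7 of 25 rose, where 3.94% of all genes were called higher and 4.48% in all. Without het sham or without het 3 dpa 1 gene passed, and without WT 3 dpa 8 did. Of 28 genes tested in macrophage-like cells, 8 had an unadjusted p under 0.05, DESeq2 called 3 and total UMIs as the scale gave 2. These counts are given without their shares over all genes. In the main edgeR fit none of the 28 passed, where 1.38% of all genes were called at adjusted p at most 0.05. The nearest was pfkpb, at 6.98, 20.03 and 7.21 CPM in WT and 7.35, 17.6 and 8.38 CPM in het (1.21 ± 0.19 (SE), adjusted p = 0.0501), followed by gpia, at 82.4, 173 and 69.5 CPM in WT and 77.0, 169 and 80.5 CPM in het (0.92 ± 0.19 (SE), adjusted p = 0.0705). eno1a stood at 341, 625 and 324 CPM in WT and 340.3, 795 and 302 CPM in het (0.88 ± 0.24 (SE), adjusted p = 0.114), with both 3 dpa libraries highest. The summed level of the 33 genes was higher at 3 dpa than at sham in both genotypes in 7 of the 9 classes measured in those 4 libraries, the exceptions being neutrophil-like and T or NK-like cells. In mural-like cells it stood at 3434 and 6579 CPM in WT and 2051 and 6731 CPM in het. Whether the changes at 3 dpa differ between classes was not tested.

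**Figure D5:**
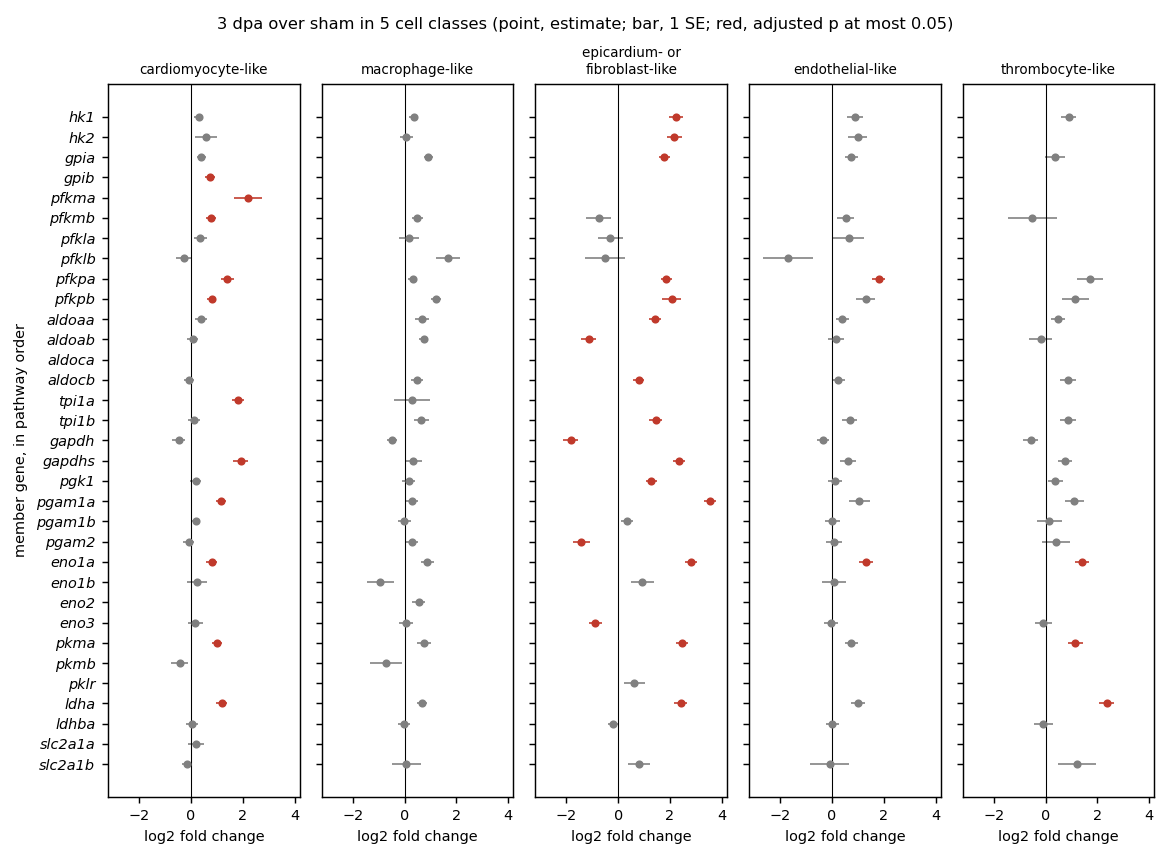
Log2 fold change of each gene from sham to 3 dpa in 5 cell classes, with a bar of 1 SE; red marks an adjusted p of at most 0.05 and genes that did not pass the count filter have no point. Red points number 11 in cardiomyocyte-like, none in macrophage-like, 18 in epicardium- or fibroblast-like, 2 in endothelial-like and 3 in thrombocyte-like cells, with 4 of the fibroblast ones below 0; eno1a is red in 4 of the 5 panels.

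At 7 dpa few glycolysis genes passed the test against sham. A gene that did not pass was not shown to be unchanged. The shares of all genes that follow are those called by edgeR at adjusted p at most 0.05. Counts at an unadjusted p are given without a share over all genes. In cardiomyocyte-like cells none of 30 passed (edgeR; 10 at an unadjusted p under 0.05, none by DESeq2; 2 without WT sham), where 1.85% of all genes were called; ldha had a log2 fold change of 0.72 ± 0.21 (SE), adjusted p = 0.129 and gapdhs one of 0.82 ± 0.27 (SE), adjusted p = 0.158. In epicardium- or fibroblast-like cells 3 of 26 rose (background 6.43% higher, 10.8% in all): hk1 (1.44 ± 0.28 (SE), adjusted p = 0.0133), pgam1a (1.59 ± 0.23 (SE), adjusted p = 0.00485) and the transporter slc2a1b (1.78 ± 0.40 (SE), adjusted p = 0.0235). Without het sham or without het 7 dpa only pgam1a was left. slc2a1b stood at 1.95, 5.51 and 7.08 CPM in WT and 1.47, 3.34 and 6.34 CPM in het, highest at 7 dpa in each genotype. It rested on 6 UMIs in each sham library, and DESeq2 called hk1 and pgam1a but not slc2a1b. A cluster led by mdka, postnb and col1a1a held 252 WT and 307 het cells at 7 dpa and 3 and 4 at sham. In it hk1 stood at 65.0 and 60.0 CPM and slc2a1b at 9.58 and 10.8 CPM, against 51.2 and 37.7 CPM and 5.73 and 6.498 CPM in the dpt-led cluster. Within the dpt-led cluster alone no gene passed at 7 dpa (edgeR; 3 at an unadjusted p under 0.05, DESeq2 not run on that cluster; 0.851% of all genes). In thrombocyte-like cells ldha alone of 21 passed (1.36 ± 0.27 (SE), adjusted p = 0.0126; background 0.635% higher, 0.678% in all), with 0 called without het sham or without het 7 dpa, 2 without WT 7 dpa, 3 without WT sham and 5 without either 3 dpa library. None of 28 passed in macrophage-like cells (2 at an unadjusted p under 0.05, none by DESeq2) and none of 25 in endothelial-like cells (4 at an unadjusted p under 0.05, none by DESeq2; 4 without WT 3 dpa and 2 without het 3 dpa), where 0% and 0.169% of all genes were called.

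No glycolysis gene passed the test of het against WT across stages in any of the 5 classes (edgeR; 0 of 30 cardiomyocyte-like, 28 macrophage-like, 26 epicardium- or fibroblast-like, 25 endothelial-like and 21 thrombocyte-like genes tested; none by DESeq2). Without WT 3 dpa 2 passed in endothelial-like cells, and without WT 3 dpa or without het 3 dpa 1 passed in thrombocyte-like cells. By edgeR at adjusted p at most 0.05, 0.0133%, 0%, 0%, 0% and 0.416% of all genes were called in the 5 classes in that order. At an unadjusted p under 0.05 there were 0, 0, 3, 3 and 4 glycolysis genes, given without a share over all genes. In cardiomyocyte-like cells the log2 fold change of het over WT was -0.03 ± 0.16 (SE) for pkma, -0.13 ± 0.17 for ldha and -0.07 ± 0.19 for gapdh. In thrombocyte-like cells it was 0.09 ± 0.22 for ldha and 0.16 ± 0.21 for gapdhs.

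The summed level was lower in het sham than in WT sham in 9 of 10 classes, the exception being neutrophil-like cells, and in the 9 classes other than cardiomyocytes, neutrophil-like cells included, the free RNA share was lower too. The 33 genes summed to 4158 CPM in het sham and 7092 CPM in WT sham thrombocyte-like cells, where the free RNA share was 4.67% and 12.9%. At sham the log2 ratio of het to WT in these cells was -0.35 (95% interval -0.48 to -0.21) for gapdhs, -0.28 (95% interval -0.72 to 0.19) for ldha and -1.24 (95% interval -1.39 to -1.09) for gapdh, in 1 library each. In cardiomyocyte-like cells the sum was 21726 CPM in het sham and 23888 CPM in WT sham. By cluster, the acta1a-led cluster held 32665 CPM in het sham and 27357 CPM in WT sham, and the myh7-led cluster 15326 and 16600.0 CPM, and the myh7-led cluster held a larger share of the het sham cells.

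To compare cardiomyocytes with high and low nppa, the tenth of cardiomyocyte-like cells with the highest nppa share in each library (129 to 301 cells) was set against the rest of the same library, with library as a term. Of 30 glycolysis genes, 1 was higher and 2 were lower in the nppa-high cells (edgeR, adjusted over 13123 genes; background 1.18% higher and 1.29% lower, 2.47% in all). pfkpa was higher in 6 of 6 libraries: high against remaining cells 52.7 against 37.2, 144 against 81.1, 106 against 59.8 CPM in WT at sham, 3 dpa and 7 dpa and 43.5 against 24.002, 139 against 90.2, 63.8 against 47.8 CPM in the het libraries. The log2 difference was 0.60 ± 0.08 (SE), adjusted p = 0.00419, and it was called under all 15 alternatives. gpib was lower in 6 of 6 libraries (-0.59 ± 0.13 (SE), adjusted p = 0.0365) and pkmb in 5 of 6 (-0.68 ± 0.14 (SE), adjusted p = 0.0325), but these lost the call under 10 and 7 of 15 alternatives, and without WT 3 dpa or without WT 7 dpa pfkpa alone passed. With total UMIs as the scale 220 genes were called higher and 90 lower, among them 2 and 1 of the glycolysis genes.

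The genes that follow did not pass in the edgeR fit above. Of them, DESeq2 called ldha (adjusted p = 0.0348) and gapdhs (adjusted p = 0.0468). With total UMIs as the scale edgeR called ldha (adjusted p = 0.0255). ldha was higher in the nppa-high cells of 6 of 6 libraries, at high against remaining cells 456 against 405, 1266 against 899, 802 against 652 CPM in WT at sham, 3 dpa and 7 dpa and 559 against 345, 1118 against 997, 757 against 565 CPM in the het libraries (log2 difference 0.30 ± 0.08 (SE), adjusted p = 0.0827). pkma was higher in 6 of 6 libraries too, by 0.13 ± 0.07 (SE), adjusted p = 0.308. gapdhs was higher in 5 of 6 (0.35 ± 0.11 (SE), adjusted p = 0.0982) and gapdh lower in 5 of 6 (-0.29 ± 0.08 (SE), adjusted p = 0.0923). The 33 genes together stood at 23382 CPM in nppa-high and 25059 CPM in remaining cells of WT 3 dpa, and at 23038 and 27263 CPM in het 3 dpa. The sum was also lower in nppa-high cells of WT 7 dpa, but higher in those of het sham and close in WT sham and het 7 dpa. In WT 3 dpa gapdh alone stood at 7035 against 8761 CPM, a gap at least as large as that of the sum. In het 3 dpa gapdh stood at 6283 against 8789 CPM, a smaller gap than that of the sum. No gene passed the test of whether the nppa-high difference itself differed between injured and sham libraries (edgeR interaction, 0 of 30). There 0.00762% of all genes were called by edgeR at adjusted p at most 0.05. Of the 30, 6 had an unadjusted p under 0.05, given without a share over all genes, and none passed by DESeq2. The nppa-high cells and the rest came from the same clusters in different mixes. At sham the myh7-led cluster gave 11.6% of the nppa-high and 32.0% of the remaining WT cells, and at 3 dpa 27.3% and 17.3%. The remaining cardiomyocyte-like cluster, led by myh6, tnnc1b and tcap, gave 5.32% against 1.77% in WT sham and 17.1% against 2.75% in het sham. Its shares were 3.65% against 2.10% in WT 7 dpa and 2.78% against 1.23% in het 7 dpa. At 3 dpa they were 0.36% against 1.92% in WT and 1.19% against 4.00% in het, and the part of this cluster was not tested. Mural markers summed to 383 CPM in nppa-high and 959 CPM in remaining cells of WT sham, and to 847 and 372 CPM in WT 3 dpa, and their part was not tested. Within the myh7-led cluster alone, where 0.88% of all genes were called higher and 0.88% lower (1.76% in all), pfkpa passed (0.48 ± 0.11 (SE), adjusted p = 0.0344) and eno3 was lower (-0.48 ± 0.07 (SE), adjusted p = 0.00103).

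Genes around the pathway were read from a list of 47 regulators, pyruvate-entry and side-branch genes, 45 of them in the tables, and a list of 22 genes of fatty acid oxidation. In cardiomyocyte-like cells at 3 dpa, 9 of 22 fatty acid oxidation genes rose and none fell, 40.9% against 4.97% higher and 6.96% lower over all genes (median log2 fold change 0.64, all genes 0.02). The carnitine transferase gene cpt2 stood at 12.8, 42.1 and 20.3 CPM in WT and 16.5, 46.0 and 19.7 CPM in het (sham, 3 dpa and 7 dpa; log2 fold change 1.46 (adjusted p = 0.00616)), and acads, an acyl-CoA dehydrogenase, at 43.7, 119.9 and 57.3 CPM in WT and 52.5, 119 and 66.2 CPM in het (1.18 (adjusted p = 0.00897)). cpt1aa (1.17 (adjusted p = 0.0451)), acadvl (1.04 (adjusted p = 0.0228)) and etfdh (1.03 (adjusted p = 0.0183)) also rose. Of 35 regulators and side-branch genes tested, 3 rose and 3 fell, 8.57% each way, near the shares over all genes. pdk2b, whose mammalian counterpart is a kinase that inactivates pyruvate dehydrogenase, stood at 701, 141 and 49.8 CPM in WT and 319.5, 160.4 and 73.7 CPM in het, with log2 fold changes of -1.89 (adjusted p = 0.029) at 3 dpa and -3.01 (adjusted p = 0.0225) at 7 dpa. The bifunctional enzyme gene pfkfb2b fell as well (-2.26 (adjusted p = 0.0223)), at under 1 CPM in every library.

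In epicardium- or fibroblast-like cells at 3 dpa, 12 of 21 fatty acid oxidation genes rose and none fell, 57.1% against 23.6% of all genes higher and 21.7% lower (median log2 fold change 0.82), and 5 of 26 regulators and side-branch genes rose and 11 fell, 19.2% and 42.3% (median -0.70). The share of them that rose was below that of all genes. The trifunctional protein gene hadhab stood at 9.44, 86.2 and 16.9 CPM in WT and 10.3, 77.5 and 14.1 CPM in het (2.48 (adjusted p = 6.42e-05)) and hadhaa rose by 2.20. The transporter slc2a10 stood at 2.60, 19.5 and 9.88 CPM in WT and 3.92, 21.5 and 8.99 CPM in het (2.07 (adjusted p = 0.000451)). pdk2b stood at 469, 50.8 and 95.7 CPM in WT and 182, 53.3 and 44.4 CPM in het (-3.03 (adjusted p = 0.000198)), and fbp1a, the gluconeogenic fructose bisphosphatase, at 47.5, 13.9 and 37.6 CPM in WT and 51.5, 20.1 and 54.7 CPM in het (-2.13 (adjusted p = 0.000124)). The hypoxia factor gene epas1a had a log2 fold change of -2.50 (adjusted p = 0.00025) here and of 1.57 (adjusted p = 0.033) in endothelial-like cells. In thrombocyte-like cells pdk2b (-1.45 (adjusted p = 0.0359)) and hif1al (-1.59 (adjusted p = 0.0359)) were lower in het than in WT, among 18 genes called lower of 4570 tested.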

How the data were processed

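Single-cell RNA was counted in 6 libraries of zebrafish ventricles, 1 per genotype and stage. The deposited values were UMI counts per gene and barcode, made by the authors with Cell Ranger 3.0.2 on GRCz11, and Seurat 3.1.4 is also named, per the submitters' processing notes. The annotation release was not given in the sources used here, and no coordinates are given. The groups were taken from the sample titles. Reads that a paralog shares with a near-identical copy could have been dropped or split by the counting, so levels of close paralogs such as pkma and pkmb or aldoaa and aldoab are uncertain.

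A barcode was kept if it had 200 genes and 500 UMIs or more and a mitochondrial share of up to 30%. Barcodes with the highest scrublet doublet scores were then removed, 0.8% per 1000 barcodes (7.55 to 11.9% per library). Cells were clustered with scanpy 1.11.5 and leidenalg 0.10.2 on 2000 variable genes (30 components, 15 neighbours, resolution 1), with the 33 genes and both neighbouring lists left out. A cluster was named from fixed marker lists by a rule set after the clusters were seen. The 33 genes, the lists of 47 and 22 genes and the tests were chosen with earlier results of these data known. Genes of the other lists are named when they passed the test and were among the 5 largest changes of their list in that comparison.

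Summed UMIs of each class and library were tested with edgeR 4.0.16 in R 4.3.3 (quasi-likelihood, TMM, filterByExpr, Benjamini-Hochberg at 0.05), with genotype and stage as terms (2 residual degrees of freedom); the nppa comparison used library as a term (5 residual degrees of freedom, 4 with the interaction). The SE of an edgeR log2 fold change was taken as its absolute value divided by the square root of the quasi-likelihood F statistic. Sums needed at least 50 cells in every library, and levels at least 20 cells. No combination had a second library, so the p-values measure the spread that genotype and stage as terms leave between pooled libraries. Intervals of single-library ratios are exact at 95% and cover counting error only. Paralog ratios used 1 UMI as pseudocount and an exact sign-flip test over libraries (scipy 1.17.1). The fits were also run on simulated counts with planted changes, drawn at a dispersion common to all genes. That check does not measure their error rates on these unreplicated libraries. DESeq2 1.42.0, other scalings and filters, kept doublets, single clusters and single libraries left out were tried as alternatives.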

Additional observations from a re-analysis of the deposited data

Results flagged for a closer look

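In 4 cases a gene moved in opposite directions in WT and het between the same stages, with the counting intervals of both single-library ratios away from 0 and both ratios at least 0.5 from 0 on the log2 scale. Each ratio compares 1 library with 1 other, and the difference between the genotypes was not tested. In epicardium- or fibroblast-like cells at 3 dpa, pfkmb had a log2 ratio to sham of -0.97 in WT and 1.03 in het. In thrombocyte-like cells at 3 dpa, eno3 had -0.80 in WT and 0.79 in het. In cardiomyocyte-like cells at 7 dpa, the transporter gene slc2a1a had 0.60 in WT and -0.59 in het; at 3 dpa it had 1.12 and -0.43. In macrophage-like cells at 7 dpa, the enolase gene eno1b had -1.49 in WT and 0.75 in het. The free RNA share of fibroblast-like cells went from 3.68% at sham to 1.54% at 3 dpa in WT and from 1.30% to 1.53% in het. That of thrombocyte-like cells went from 12.9% to 9.48% in WT and from 4.67% to 8.26% in het, so both moved in the same directions as pfkmb and eno3, and their part was not tested.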

How the results depend on the processing

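Calls in cardiomyocyte-like cells at 3 dpa and in epicardium- or fibroblast-like cells at 3 dpa kept to within 1.5 times their counts under most settings. Among the exceptions were single libraries left out of the cardiomyocyte-like fit and 1 fibroblast cluster alone. With single libraries left out the calls were 0 to 9 in cardiomyocyte-like and 15 to 18 in epicardium- or fibroblast-like cells. With 1 fibroblast cluster alone 2 genes were called and aldoab (0.077), aldocb (-0.48), eno3 (0.079), hk1 (-0.059) and hk2 (-0.081) changed sign on the log2 scale. That setting leaves out the col12a1a-led cluster, which held 379 of 845 WT and 349 of 838 het cells at 3 dpa. The other counts were small and moved with many settings. The share of all genes called moves with the setting too, in endothelial-like cells at 3 dpa from 1.63% to 4.48% with total UMIs as the scale. The counts below, and those with single libraries left out, are given without that share. They do not show whether more glycolysis genes were called than among all genes. With no filter on low counts the genes called numbered 2 in cardiomyocyte-like cells at 7 dpa, 1 in macrophage-like cells at 3 dpa, and 5 in fibroblast-like cells at 7 dpa and 1 for genotype. They numbered 5 and 3 in endothelial-like cells at 3 and 7 dpa, 2 in thrombocyte-like cells at 7 dpa, and 6 for nppa and 1 for its interaction. Scaling by the median of ratios gave 1 in macrophage-like and 1 in endothelial-like cells at 3 dpa, and total UMIs gave 2 and 7. DESeq2 gave 3 in macrophage-like cells at 3 dpa, 0 in thrombocyte-like cells at 7 dpa and 5 for nppa. With doublets kept there were 1, 1 and 0 in macrophage-like and endothelial-like cells at 3 dpa and thrombocyte-like cells at 7 dpa. Within 1 cluster there were 2 in macrophage-like cells at 3 dpa, 0 in fibroblast-like cells at 7 dpa, and 0 and 2 in endothelial-like cells at 3 and 7 dpa. With free RNA subtracted there were 6 in fibroblast-like cells at 7 dpa, of which hk1, pgam1a and slc2a1b rose as before and aldoab, gapdh and aldocb fell. After that subtraction the sizes of the aldoab and gapdh falls are uncertain, as both genes stood near the free RNA share. That setting gave 1 in endothelial-like cells at 3 dpa and 2 in thrombocyte-like cells at 7 dpa.

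With single libraries left out the counts were 0 to 2 in cardiomyocyte-like cells at 7 dpa, 0 to 1 in macrophage-like cells at 3 dpa, 1 to 4 in fibroblast-like cells at 7 dpa, 1 to 8 and 0 to 4 in endothelial-like cells at 3 and 7 dpa, and 1 to 6 and 0 to 5 in thrombocyte-like cells. They were 1 to 3 for nppa and, for genotype, 0 to 2 in endothelial-like and 0 to 1 in thrombocyte-like cells. The 11 paralog pairs called, the unmeasured aldoca pair among them, fell to 0 to 0 because 5 libraries cannot pass. The slc2a1a to slc2a1b difference reversed to -0.051 with free RNA subtracted and -0.33 with a pseudocount of 5. Weighting each cardiomyocyte-like cell equally gave a summed level of 22636 CPM. Except where a construction is named, the cause was not tested. The total UMI scaling, free RNA, 1-cluster and mitochondrial settings were chosen after seeing the data. No paired analysis was possible because each genotype and stage had 1 library, all with replicate number 1, so the numbers pair nothing; the stage fits had genotype as a term, and the nppa and paralog comparisons were made within libraries. At 57 to 667 thrombocyte-like and 37 to 75 neutrophil-like cells per library, depth limits those classes.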
